A study of Mus musculus with 2 samples.

Results

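The 10 genes examined encode the contractile apparatus of smooth muscle. They are the actins Acta2 and Actg2, the tropomyosins Tpm1 and Tpm2, the thin filament proteins Tagln and Cnn1, the myosin genes Myh11 and Myl9, the myosin kinase Mylk and the intermediate filament gene Des. They were taken as a named list, and all 10 were present among the 52636 gene IDs of both count matrices. Each matrix came from a droplet single-cell RNA library made from the gut of 1 mouse embryo of the C57BL/6 strain, taken late in gestation at E18.5. The Casp8-mutant embryo (Casp8 C362A/C362A Mlkl -/-) carried 2 copies of a Casp8 allele whose protein has no catalytic activity, and it also lacked Mlkl, the executor of necroptosis. The Mlkl-null embryo (Mlkl -/-) lacked Mlkl and had unaltered Casp8, so loss of Mlkl was shared by both. The comparison addresses what caspase-8 activity contributes in the fetal intestine when necroptosis cannot run. There was 1 embryo and 1 library per genotype, so no difference here has a replicate check, and every interval covers counting error only. Genotype, embryo, sex and library cannot be told apart.

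Smooth muscle of the gut wall lies in circular and longitudinal layers, with a further thin layer under the mucosa and strands in the villi. It shortens when calcium-bound calmodulin activates myosin light chain kinase, which phosphorylates the regulatory light chain and lets myosin pull on actin filaments decorated with tropomyosin, calponin and transgelin. Many of these genes are switched on together by serum response factor, which binds a DNA element called the CArG box, with the cofactor myocardin. Some of them are not limited to muscle, since tropomyosin 1 and myosin light chain kinase also serve the cytoskeleton of epithelial and other cells.

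On mm10, the actin genes lie at chr19:34241090-34255590 on the minus strand (Acta2, the smooth muscle alpha actin) and chr6:83512905-83536265 on the minus strand (Actg2, the gamma actin of visceral muscle). The tropomyosins lie at chr9:67022590-67049406 on the minus strand (Tpm1) and chr4:43514711-43523765 on the minus strand (Tpm2). Tagln, which encodes the actin-bundling transgelin, is at chr9:45929619-45936058 on the minus strand, and Cnn1, which encodes calponin, an inhibitor of actomyosin ATPase, is at chr9:22099216-22109630 on the plus strand. The motor genes are at chr16:14194535-14291372 on the minus strand (Myh11, the smooth muscle myosin heavy chain), chr2:156775420-156781658 on the plus strand (Myl9, the regulatory light chain) and chr16:34745210-35002420 on the plus strand (Mylk). Des, which encodes desmin, is at chr1:75360329-75368579 on the plus strand.

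A start-site window of 300 bases, from 250 before to 50 after the start, was held by the RefSeq GRCm38.p6 table for 7 of the 10 genes. The windows were searched on both strands for the CArG box, for the CArG box with 1 mismatch in its central bases, and for the TATA box written as TATAAA. An exact CArG box was found in Myl9 alone of the 7, against 1.63% of all 32851 windows in the table. Matches with 1 mismatch were found in 2 of the 7, Acta2 and Myl9, against 8.50% of all windows, and Acta2 held a pair of them, against 0.679% of all windows. Mylk, Tpm1, Tpm2, Cnn1 and Des had neither form in this window, and none of the 7 held TATAAA, which 13.6% of all windows hold. The Tpm1 window was rich in CG dinucleotides, with 27 against a median of 7 over all windows. Myl9 and Tpm2 had 20 each, Des 11, Acta2 and Cnn1 6 each and Mylk 4. The Mylk window, at chr16:34784700-34784999 on the plus strand, lies inside the gene and not at its outer end. Whether the number follows how far a gene was confined to the muscle-like cells was not tested. The windows of Acta2, Myl9 and Tpm1 are shown because Acta2 and Myl9 hold the matches and Tpm1 is the gene found in most classes. Capitals mark the CArG box and its forms with 1 mismatch, and the windows run 5′ to 3′ on each gene's own strand, at chr19:34255324-34255623 (minus, Acta2), chr2:156775214-156775513 (plus, Myl9) and chr9:67049164-67049463 (minus, Tpm1).
Acta2: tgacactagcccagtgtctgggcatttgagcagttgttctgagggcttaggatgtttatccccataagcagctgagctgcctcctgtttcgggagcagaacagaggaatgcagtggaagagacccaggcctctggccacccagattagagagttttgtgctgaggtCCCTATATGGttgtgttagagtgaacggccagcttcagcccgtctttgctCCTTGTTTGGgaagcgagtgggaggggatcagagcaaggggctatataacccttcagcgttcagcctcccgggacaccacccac
Myl9: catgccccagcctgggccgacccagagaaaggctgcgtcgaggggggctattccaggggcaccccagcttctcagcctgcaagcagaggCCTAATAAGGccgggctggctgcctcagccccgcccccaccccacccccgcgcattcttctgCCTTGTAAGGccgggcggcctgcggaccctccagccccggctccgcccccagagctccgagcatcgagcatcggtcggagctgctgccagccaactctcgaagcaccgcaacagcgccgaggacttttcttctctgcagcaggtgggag
Tpm1: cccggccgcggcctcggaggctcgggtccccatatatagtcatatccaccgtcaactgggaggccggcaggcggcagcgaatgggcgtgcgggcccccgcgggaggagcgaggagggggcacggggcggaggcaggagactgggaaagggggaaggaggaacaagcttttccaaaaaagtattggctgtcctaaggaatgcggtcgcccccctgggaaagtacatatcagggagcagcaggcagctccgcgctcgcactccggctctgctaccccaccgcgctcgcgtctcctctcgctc
In Acta2 the pair starts 84 and 34 bases before the start site. In Myl9 the exact box starts 161 bases and the form with 1 mismatch 99 bases before it.

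The libraries held 1014 barcodes and 2804929 UMIs for the Casp8-mutant embryo, and 1478 barcodes and 6290008 UMIs for the Mlkl-null embryo. A UMI, or unique molecular identifier, stands for 1 captured transcript. After cells with under 500 genes (139 and 39) and called doublets (2 and 4) were left out, 873 Casp8-mutant and 1435 Mlkl-null cells remained, 2308 in all, with medians of 1957 and 3707 UMIs. The libraries shared 2 barcodes. Xist had 8271 and 2 UMIs and Ddx3y 2 and 276 in the Casp8-mutant and Mlkl-null libraries, so the embryos differed in sex. In the Casp8-mutant and Mlkl-null libraries Mlkl had 13 and 1 UMIs and Casp8 232 and 399. Counts at the 3′ end check neither a point mutation nor a deletion elsewhere in the gene.

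Cells were clustered without the 10 genes, and clusters were named from marker lists that hold none of them. The 10 genes were not left out of the leading genes among which markers were sought, so they could take places there. A smooth muscle-like cluster of 10 cells was found, with 9 markers of the smooth muscle list among its 50 leading genes. It held 1 of 873 Casp8-mutant cells (0.115%, exact binomial 95% interval 0.0029 to 0.637) and 9 of 1435 Mlkl-null cells (0.627%, interval 0.287 to 1.19). The intervals overlap. Because 9 of the 10 cells were from 1 library, the cluster could be a feature of that library. Of the 22 smooth muscle markers, 7 were found in the Casp8-mutant cell and 19 over the 9 Mlkl-null cells, with Myocd, the gene of myocardin, at 0 in both. Endothelial markers were at 0 in both, and fibroblast markers had 1 UMI in the Casp8-mutant cell and 52 over the Mlkl-null cells. Markers of other cells were present as well. The Casp8-mutant cell held 17 UMIs of smooth muscle markers, against 12 of granulocyte, 12 of erythroid and 7 of epithelial markers. The Mlkl-null cells held 366 of smooth muscle markers, against 92 of epithelial and 55 of erythroid markers. The class was not recovered under 5 of the 7 other cell filters and cluster settings tried, where the 9 Mlkl-null cells joined the fibroblast-like class. The Casp8-mutant cell joined it in 3 of the 5, was left out at 1000 genes, and fell in an epithelial-like cluster when each library was clustered alone.

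The 10 genes were a large part of the RNA of the smooth muscle-like cells. They took 10.8% of the UMIs of the Casp8-mutant cell, and between 6.58% and 15.6%, with a median of 11.4%, of those of the Mlkl-null cells. The Casp8-mutant cell held 185 UMIs of the set out of 1719, with 9 of the 10 genes found and Cnn1 at 0. The Mlkl-null cells held 175 to 510, with all 10 genes in every cell. The Casp8-mutant cell thus lay inside the Mlkl-null range for the share of the set. It was the shallowest of the 10 cells, against 2259 to 4796 UMIs in the Mlkl-null cells.

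The mix of the genes in the single Casp8-mutant cell was set against that of the Mlkl-null cells. Actg2 had 70 UMIs in the Casp8-mutant cell, against 11 to 138 (median 63) in the 9 Mlkl-null cells. Acta2 had 12 UMIs in the Casp8-mutant cell, against 25 to 73 (median 37) in the Mlkl-null cells. As a level in CPM (UMIs per 1e+06 UMIs of the cell or class), Acta2 stood at 6981 CPM in the Casp8-mutant cell, below the Mlkl-null range of 9395 to 18856. Tagln stood at 12798 CPM in the Casp8-mutant cell, above the Mlkl-null range of 5261 to 12571, and Des at 6981 was above the range of 1258 to 5900. Myl9, the light chain, was at 4654 CPM in the Casp8-mutant cell, below the Mlkl-null range of 7892 to 21913, and Mylk at 3490 was below the range of 8643 to 19076. Actg2, Tpm1, Tpm2 and Myh11 of the Casp8-mutant cell lay within the Mlkl-null ranges. Cnn1 had 0 UMIs in the Casp8-mutant cell, against 4 to 15 (median 8) in the Mlkl-null cells. The Poisson intervals of the Casp8-mutant cell were wide. They were 3607 to 12194 CPM for Acta2 and for Des, 8021 to 19377 for Tagln and 2009 to 9170 for Myl9. Each of these reaches into the Mlkl-null range, as does that of Cnn1, 0 to 2146 CPM. The interval of Mylk, 1281 to 7597 CPM, does not. A comparison with 1 cell describes that cell and not a genotype.

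**Figure D1:**
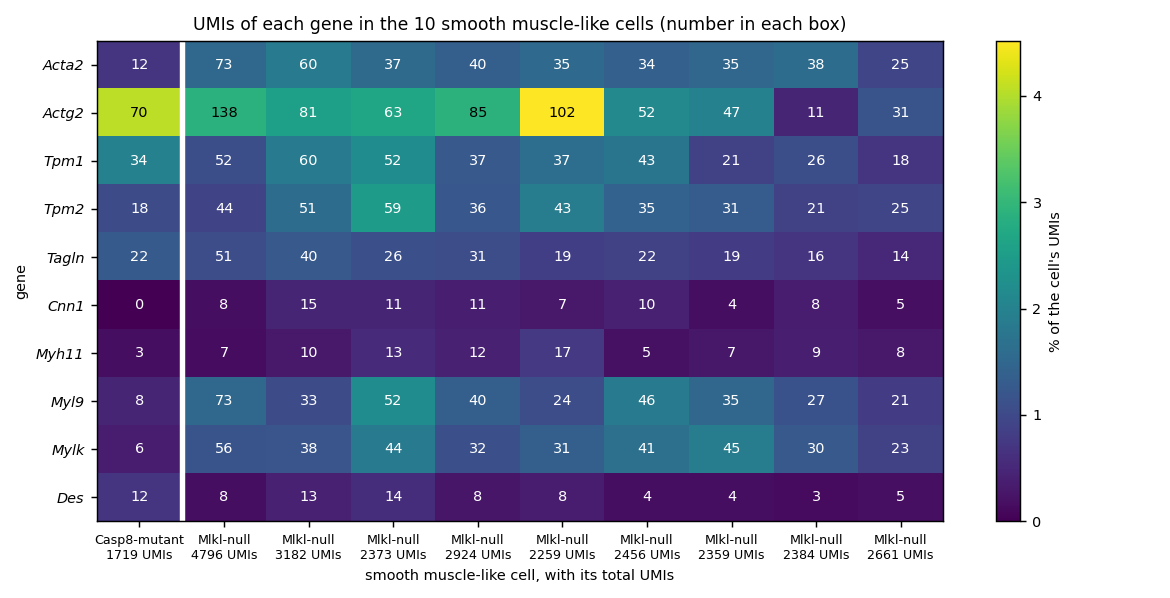
UMIs of each gene (numbers in the boxes) and their share of the cell's UMIs (colour) in the 10 smooth muscle-like cells, with the Casp8-mutant cell at the left and the 9 Mlkl-null cells after it. Actg2 runs from 11 to 138 UMIs in the Mlkl-null cells and is 70 in the Casp8-mutant cell, where Cnn1 is at 0.

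The genes differed widely in how far they were confined to these cells. Levels are compared within a gene here. Summed over the Mlkl-null library, Actg2 was at 24021 CPM in the 9 smooth muscle-like cells and at 28.8 CPM in the other cells, a ratio of 833 (interval 705 to 992). Tagln had a ratio of 700, Myh11 of 556, Cnn1 of 500, Myl9 of 474, Acta2 of 405 and Tpm2 of 401, and Des of 225. Tpm1, at 13625 CPM in the smooth muscle-like cells and 357 CPM in the others, had a ratio of 38.2 (34.0 to 42.8), and Mylk, at 13389 and 189 CPM, a ratio of 70.9 (62.6 to 80.0). The smooth muscle-like cells held 74.5% of the Actg2 UMIs of the Casp8-mutant library and 77.5% of those of the Mlkl-null library. They held 3.60% and 13.6% of the Tpm1 UMIs and 3.31% and 22.6% of the Mylk UMIs of the Casp8-mutant and Mlkl-null libraries. Acta2, Actg2, Tagln, Myh11, Cnn1 and Des are called the 6 core muscle genes below. They were picked from general knowledge and not from these ratios, by which Myl9 and Tpm2 were more confined to the smooth muscle-like cells than Des. Tpm1 and Mylk are given as a pair.

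**Figure D2:**
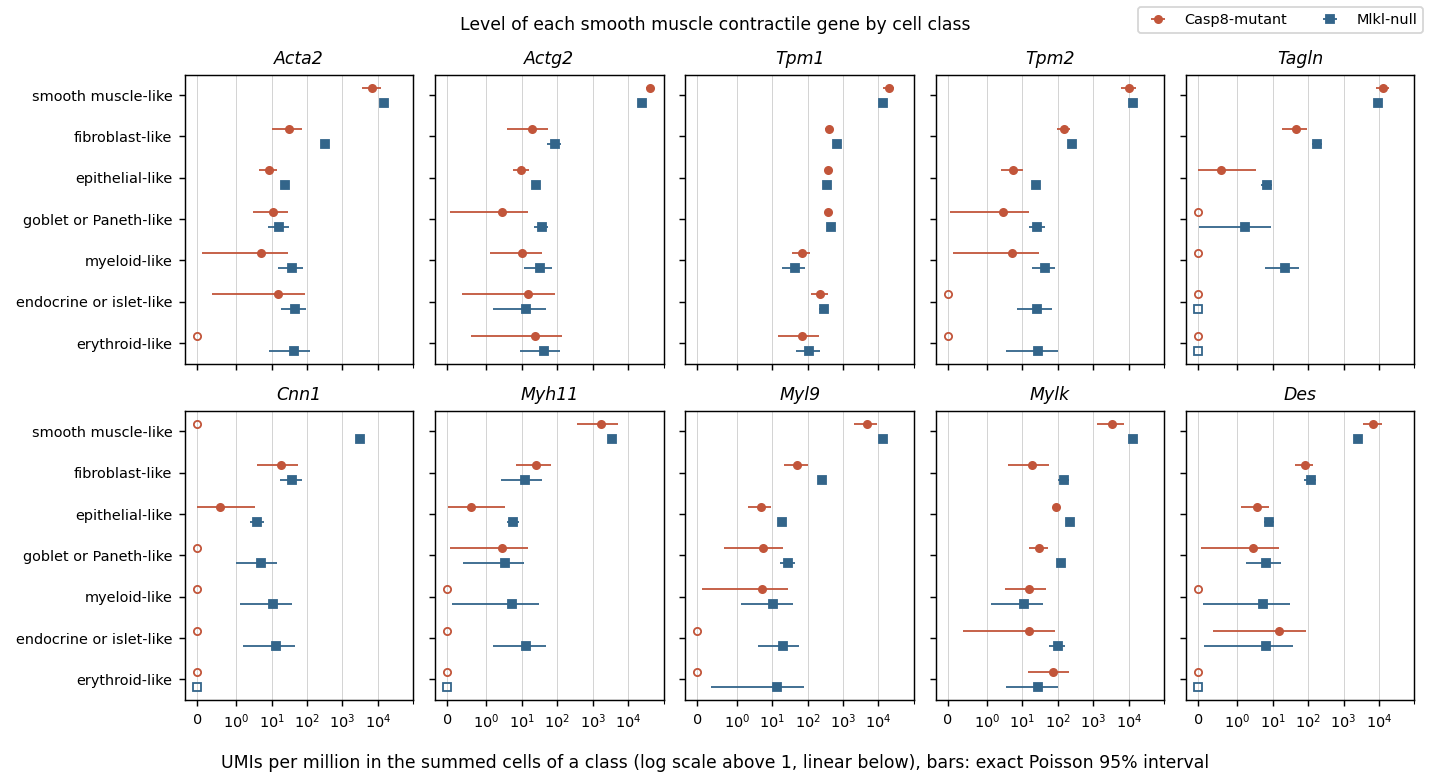
Level of each gene in CPM (log axis, linear below 1) in 7 cell classes of the Casp8-mutant (circles, upper) and Mlkl-null (squares, lower) libraries, with exact Poisson 95% intervals, where open symbols mark 0 UMIs. Every gene but Cnn1 in the Casp8-mutant library, at 0 there, is highest in the smooth muscle-like cells of its library. Tpm1 stays above 40 CPM in every class shown.

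UMIs of the core muscle genes were also spread thinly over the myeloid-like, erythroid-like and epithelial-like classes. At least 1 such UMI was found in 2.73% of Casp8-mutant and 24.6% of Mlkl-null myeloid-like cells, with median depths of 1538 and 2825 UMIs. In erythroid-like cells it was found in 1 of 26 Casp8-mutant and 4 of 20 Mlkl-null cells. Epithelial-like cells had 6.69% and 26.3%, at median depths of 2232 and 3835 UMIs. As a level, the 6 genes stood at 23.3 CPM in Casp8-mutant and 74.4 CPM in Mlkl-null epithelial-like cells, against 15.6 and 114 CPM in myeloid-like cells and 23.8 and 84.6 CPM in erythroid-like cells of the same libraries. Both epithelial levels lay below the upper counting limits of the myeloid-like levels, 45.6 CPM in the Casp8-mutant and 174 CPM in the Mlkl-null library. The myeloid-like levels rest on 3 Casp8-mutant and 21 Mlkl-null UMIs, so their limits are wide. Whether the epithelial-like UMIs are expression or background was not tested, nor was their source.

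The make-up of these UMIs resembled that of the Mlkl-null muscle-like cells for some genes and not for others. Among the UMIs of the 6 genes, Myl9 and Tpm2, Acta2 made up 14 of 56 in Casp8-mutant epithelial-like cells and 20.8% (interval 17.5 to 24.5) in Mlkl-null epithelial-like cells, against 17.5% (15.9 to 19.2) in Mlkl-null smooth muscle-like cells. Myl9 made up 14.3% and 15.9% in epithelial-like cells of the Casp8-mutant and Mlkl-null libraries, against 16.3% in Mlkl-null smooth muscle-like cells. Actg2 made up 28.6% and 21.7% (18.4 to 25.4 in Mlkl-null cells), against 28.3% (26.4 to 30.3). Tagln made up 1.79% and 5.98%, against 11%, and Des 10.7% and 6.88% (4.92 to 9.33 in Mlkl-null cells), against 3.11% (2.42 to 3.93). In Mlkl-null epithelial-like cells the shares of Actg2 and Tagln were thus lower and that of Des higher than in the muscle-like cells. In the fibroblast-like cells Tagln made up 10.6% (4.37 to 20.6) in the Casp8-mutant and 14.1% (10.4 to 18.6) in the Mlkl-null library. Both intervals include the 11% of the Mlkl-null smooth muscle-like cells. Tpm2 made up 34.8% there in the Casp8-mutant library and 19.8% in the Mlkl-null library, and Actg2 4.55% and 6.71%.

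Over all cells the set was lower in the Casp8-mutant library. The 10 genes held 1422 UMIs or 547 CPM (Poisson interval 519 to 576) in Casp8-mutant cells and 7215 UMIs or 1169 CPM (1142 to 1196) in Mlkl-null cells, a ratio of 0.468 (0.441 to 0.495). By a size rule of at least 1.5-fold with an interval that leaves out 1 and at least 20 UMIs, 9 of the 10 genes were lower and none higher in the Casp8-mutant library. Of the 15326 genes measured in the same way, 26.7% were lower and 22.3% higher, and the count of 9 is to be read against these shares. The median log2 ratio was -2.08 over the 10 genes and -0.16 over all measured genes. A sum over all cells cannot tell fewer cells of a type from less RNA per cell.

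Among the actins, Acta2 stood at 15.8 CPM in Casp8-mutant cells and 97.5 CPM in Mlkl-null cells, a ratio of 0.163 (0.115 to 0.222). Actg2 stood at 36.1 and 128 CPM, a ratio of 0.285 (0.226 to 0.351). The intervals of the levels do not overlap for either actin. Of the 94 Actg2 UMIs of the Casp8-mutant library, 70 came from its 1 smooth muscle-like cell.

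The tropomyosins parted. Tpm2 stood at 20.8 CPM in Casp8-mutant cells and 89.6 CPM in Mlkl-null cells, a ratio of 0.234 (0.172 to 0.307). Tpm1 stood at 363 and 411 CPM, a ratio of 0.882 (0.818 to 0.951), and was the only one of the 10 that did not pass the size rule. The other thin filament genes were low in both libraries. Tagln stood at 12.3 CPM in Casp8-mutant and 51.8 CPM in Mlkl-null cells (ratio 0.241, 0.160 to 0.342). Cnn1 had 5 UMIs in Casp8-mutant and 117 in Mlkl-null cells (ratio 0.111, 0.0323 to 0.243).

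The motor genes were lower as well. Myl9 stood at 11.1 CPM in Casp8-mutant and 85.9 CPM in Mlkl-null cells, a ratio of 0.132 (0.0861 to 0.189). Myh11 had 9 UMIs in Casp8-mutant and 126 in Mlkl-null cells, a ratio of 0.178 (0.0757 to 0.332). Mylk stood at 69.6 and 243 CPM, a ratio of 0.287 (0.244 to 0.334). Des, which links the contractile units to each other, stood at 12.7 and 22.5 CPM, a ratio of 0.570 (0.373 to 0.828), the closest to 1 of the 9 genes that passed.

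Part of this gap rested on 10 cells. The smooth muscle-like cells gave 13.0% of the set's UMIs in the Casp8-mutant library and 39.4% in the Mlkl-null library, and 55.6% and 69.8% of those of the 6 core muscle genes. Without them the set stood at 476 CPM in Casp8-mutant cells and 712 CPM in Mlkl-null cells, a ratio of 0.669 (0.627 to 0.712) that no longer reached 1.5-fold. Lower genes numbered 8 of 10 and higher genes 0, against 26.7% lower and 22.5% higher among 15310 genes measured without these cells. Tpm1 stood at 350 and 357 CPM (ratio 0.981, 0.907 to 1.06) and Des at 8.08 and 11.7 CPM (ratio 0.701, 0.403 to 1.13), and neither passed. The 6 core muscle genes stood at 36.5 CPM in Casp8-mutant and 103 CPM in Mlkl-null cells. Without the fibroblast-like cells as well they stood at 24.6 and 76.6 CPM, mostly from epithelial-like cells. The part of background and of depth in this difference was not tested.

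**Figure D3:**
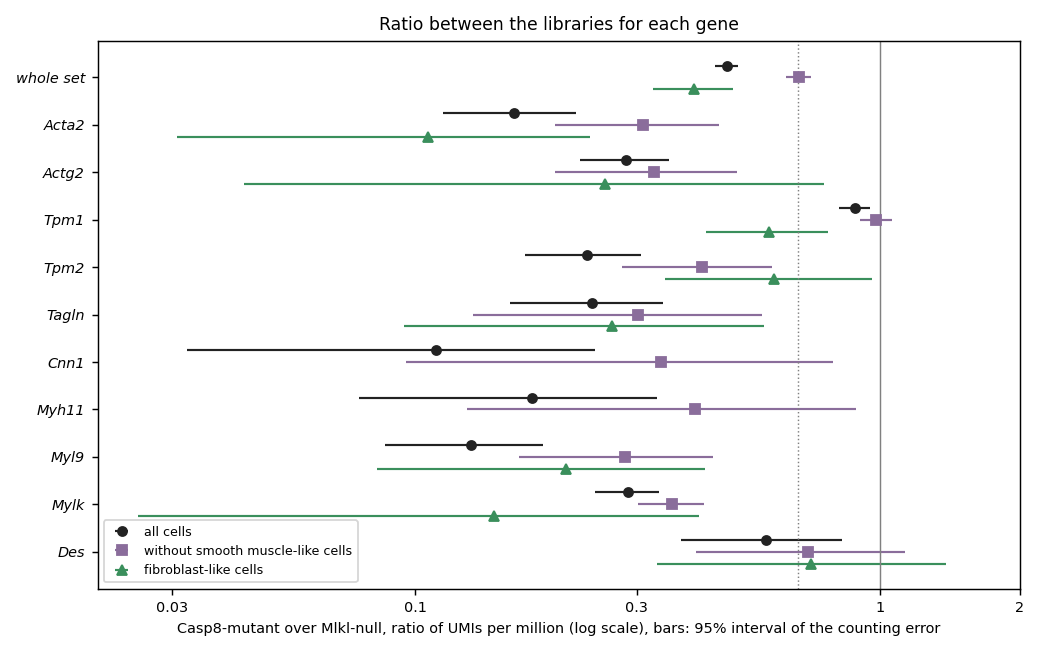
Ratio of Casp8-mutant over Mlkl-null CPM (log axis) for the whole set and each gene, over all cells, without the smooth muscle-like cells and in fibroblast-like cells, with 95% intervals for counting error, for genes with at least 20 UMIs in the cells compared. The solid line is 1 and the dotted line a 1.5-fold lower level. Tpm1 lies at 0.882 over all cells and at 0.577 in fibroblast-like cells.

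Cells with 3 or more UMIs of the set numbered 167 of 873 in the Casp8-mutant library (19.1%, interval 16.6 to 21.9) and 646 of 1435 in the Mlkl-null library (45.0%, 42.4 to 47.6). These cells were deeper than the rest, with medians of 5067 and 4722 UMIs. With each cell thinned to 2000 UMIs and shallower cells left out, 7.41% of 432 Casp8-mutant cells and 16% of 1236 Mlkl-null cells reached 3. Thinning left out 441 Casp8-mutant and 199 Mlkl-null cells. The threshold mostly picked out epithelial-like cells, which made up 122 of the 167 Casp8-mutant and 520 of the 646 Mlkl-null cells. Tpm1 and Mylk alone brought 148 and 511 of them to 3 UMIs, and 127 and 333 had no UMI of the 6 core muscle genes. A cell with 3 or more UMIs of the set is therefore not a muscle cell by that count alone.

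Counted over the 6 core muscle genes, far fewer cells reached 3 UMIs. They numbered 8 in the Casp8-mutant library (0.916%, interval 0.396 to 1.80) and 35 in the Mlkl-null library (2.44%, 1.70 to 3.38). Of these, 5 and 14 were fibroblast-like, 1 and 9 smooth muscle-like, and 1 and 9 epithelial-like. At 50 or more UMIs of the whole set, 1 Casp8-mutant and 11 Mlkl-null cells remained. The Casp8-mutant cell and 9 of the 11 Mlkl-null cells were smooth muscle-like, and the other 2 were fibroblast-like.

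**Figure D4:**
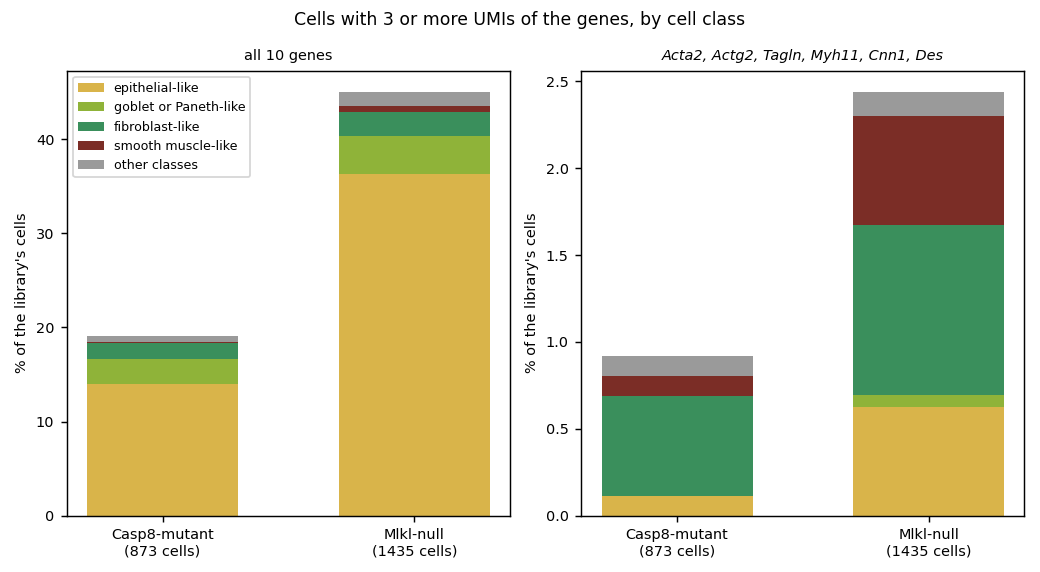
Share of each library's cells with 3 or more UMIs of all 10 genes (left) and of the 6 core muscle genes (right), stacked by cell class, for 873 Casp8-mutant and 1435 Mlkl-null cells. Most cells on the left are epithelial-like, at 122 of 167 and 520 of 646, while those on the right are mainly fibroblast-like and smooth muscle-like.

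In epithelial-like cells Mylk was lower in the Casp8-mutant library and Tpm1 was not. Tpm1 stood at 388 CPM (359 to 420) in Casp8-mutant and 348 CPM (332 to 366) in Mlkl-null epithelial-like cells, a ratio of 1.12 (1.02 to 1.22) that did not reach 1.5-fold, and 1.06 (0.969 to 1.16) when scaled by the median of ratios. Mylk stood at 90.4 CPM (76.5 to 106) and 218 CPM (205 to 232), a ratio of 0.416 (0.347 to 0.492). Both were well above their myeloid-like levels, where Mylk stood at 15.6 and 10.8 CPM and Tpm1 at 67.7 and 43.3 CPM. A Mylk UMI was found in 24.1% of Casp8-mutant and 55.4% of Mlkl-null epithelial-like cells, and a Tpm1 UMI in 60.2% and 61.3%. The size rule was met by 8 of the 10 genes in epithelial-like cells, all lower in the Casp8-mutant library, against 26.4% of 13399 genes lower and 23.9% higher. For the 7 of them other than Mylk, the level lay within the counting interval of the myeloid-like level of the same library, so no difference in expression is read from them.

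The epithelial-like cells of the libraries fell into separate clusters, so each value mixes different cell states. The Casp8-mutant cells formed clusters 4, 5, 8, 15 and 20 and the Mlkl-null cells, apart from 1, clusters 0, 1, 2, 3 and 6. Among the Casp8-mutant clusters of over 100 cells, Mylk ran from 63.8 CPM (48.2 to 82.9) in cluster 5, led by Gpx2 and Reg3g, to 166 CPM (122 to 221) in cluster 4, led by Sprr2a3 and the interferon-induced gene Ifit1. Among the Mlkl-null clusters it ran from 102 CPM (85.8 to 121) in cluster 3, led by Edn1 and the cell cycle gene Ccnd2, to 364 CPM (316 to 418) in cluster 2, led by the lipid-handling genes Cd36 and Apoa4. The clusters of the libraries overlap in Mylk level, since cluster 4 lies above cluster 3. Tpm1 had the opposite order in these 2 clusters, with 579 CPM (538 to 622) in cluster 3 and 175 CPM (142 to 214) in cluster 2. In Mlkl-null clusters 0, 1 and 6 both genes had the same order, with Mylk at 277, 217 and 198 CPM and Tpm1 at 307, 264 and 220 CPM. Among the Casp8-mutant clusters of over 100 cells Tpm1 was 329, 343 and 507 CPM in clusters 4, 5 and 8.

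**Figure D5:**
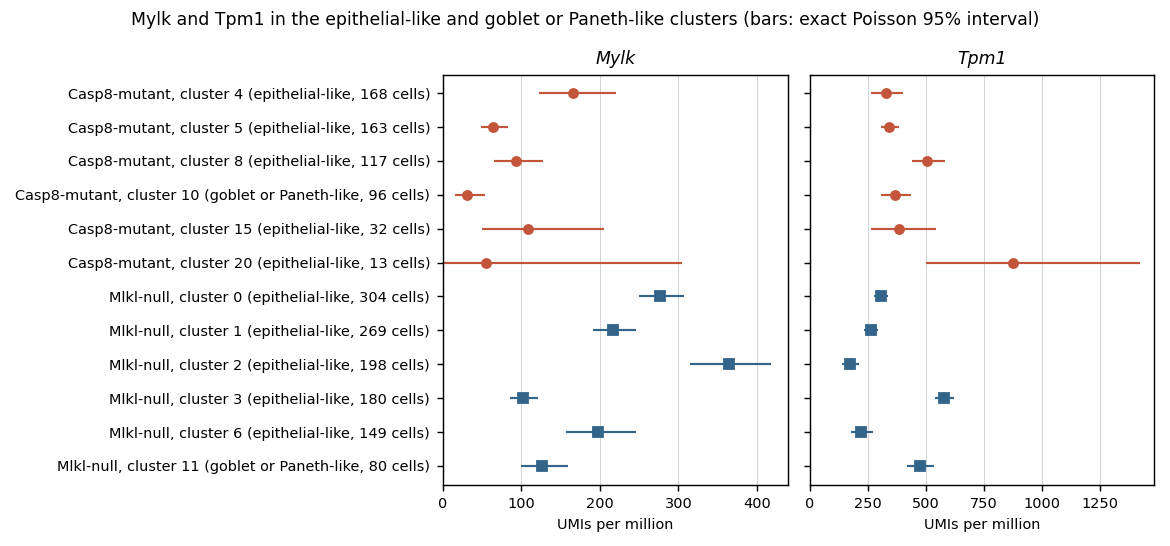
Mylk and Tpm1 in CPM, with exact Poisson 95% intervals, in each epithelial-like and goblet or Paneth-like cluster, with the Casp8-mutant clusters (circles) above the Mlkl-null clusters (squares). In the Mlkl-null library, cluster 2 has the highest Mylk (364 CPM) and the lowest Tpm1 (175 CPM), and cluster 3 the lowest Mylk (102 CPM) and the highest Tpm1 (579 CPM).

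Goblet or Paneth-like cells, the secretory cells of the epithelium, numbered 96 in the Casp8-mutant library (cluster 10) and 86 in the Mlkl-null library (mostly cluster 11). The set stood at 425 CPM in Casp8-mutant and 710 CPM in Mlkl-null cells, a ratio of 0.60 (0.495 to 0.721). Mylk stood at 30.4 and 120 CPM (ratio 0.263, 0.121 to 0.481) and Tpm1 at 367 and 468 CPM (ratio 0.787, 0.635 to 0.969). Of 3 genes with enough UMIs, Mylk and Actg2 were lower and Tpm1 was neither, against 25.1% of genes lower and 9.37% higher in these cells. Actg2 had 1 UMI in the Casp8-mutant and 22 in the Mlkl-null cells (ratio 0.112, 0.00185 to 0.473), but its levels of 2.76 and 36.1 CPM lay within the counting intervals of the myeloid-like levels, so no difference in expression is read from it.

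In fibroblast-like cells the core muscle genes stood above their epithelial-like and myeloid-like levels, at 223 CPM in Casp8-mutant and 759 CPM in Mlkl-null cells. Fibroblast-like cells numbered 57 in the Casp8-mutant and 54 in the Mlkl-null library. They formed 1 shared cluster (cluster 9), with medians of 1551 and 2395 UMIs. The set stood at 833 CPM (696 to 989) in Casp8-mutant and 2098 CPM (1917 to 2291) in Mlkl-null fibroblast-like cells, a ratio of 0.398 (0.325 to 0.482). Of 8 genes measured there, 7 were lower and none higher in the Casp8-mutant cells, against 16.2% of 3181 genes lower and 14.1% higher. The median log2 ratio was -1.94 over these 8 genes and -0.19 over all genes measured. Scaling by the median of ratios moved the log2 ratio of every gene in this class by -0.25, and the set stayed lower. At 3 or more set UMIs, 26.3% (15.5 to 39.7) of Casp8-mutant and 68.5% (54.4 to 80.5) of Mlkl-null fibroblast-like cells were counted. After thinning to 2000 UMIs these were 22.2% (6.41 to 47.6) of 18 and 62.9% (44.9 to 78.5) of 35, with intervals that overlap. Acta2 stood at 31.8 and 326 CPM (ratio 0.106, 0.0308 to 0.237), with a UMI in 3 of 57 Casp8-mutant and 20 of 54 Mlkl-null cells. Myl9 stood at 50.9 and 254 CPM (ratio 0.211, 0.0826 to 0.420) and Tagln at 44.5 and 178 CPM (ratio 0.265, 0.0948 to 0.562). Tpm1 stood at 394 and 687 CPM (ratio 0.577, 0.421 to 0.774) and Tpm2 at 146 and 250 CPM (ratio 0.593, 0.345 to 0.962). Mylk had 3 and 35 UMIs (ratio 0.148, 0.0253 to 0.408) and Actg2 3 and 20 (ratio 0.256, 0.0428 to 0.759). Des stood at 82.7 and 119 CPM (ratio 0.711, 0.331 to 1.39), and did not pass.

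A few cells carried much of the fibroblast-like level. In the Mlkl-null library 1 cell of 2518 UMIs held 118 UMIs of the set and all 10 genes, which was 23.8% of the class's set UMIs, with 20 UMIs of other smooth muscle markers and 26 of fibroblast markers. In the Casp8-mutant library the highest cell, of 1121 UMIs, held 19 UMIs of the set and 8 of the 10 genes. It had 8 UMIs of other smooth muscle markers and 3 of fibroblast markers. Without the highest cell of each library, a step chosen after the values were seen, the ratio of the set was 0.445 (0.356 to 0.550). Of 7 measured genes, 4 were lower and none higher. The shares over all genes were not computed without these cells, and were 16.2% lower and 14.1% higher with them. The lower genes were Acta2, Myl9, Mylk and Tpm1, while Tagln (ratio 0.525, 0.162 to 1.31) and Tpm2 (ratio 0.756, 0.427 to 1.27) no longer passed. Other cells of mixed markers remained, such as a Mlkl-null cell with 52 set UMIs. That cell held 60 UMIs of smooth muscle, 38 of fibroblast and 31 of pericyte markers. The class was mixed, and markers of other stromal cells differed with it. The 10 pericyte markers summed to 235 CPM in Casp8-mutant and 581 CPM in Mlkl-null cells, with 6 and 10 of them found and Cspg4, Pdgfrb, Notch3 and Higd1b at 0 in the Casp8-mutant cells. The 10 endothelial markers summed to 242 and 903 CPM, with 7 and 10 found and Cdh5, Tie1 and Emcn at 0 in the Casp8-mutant cells, and the 8 mesothelial markers to 1354 and 1276 CPM, with all found in both. The fibroblast markers themselves summed to 9049 and 11190 CPM. The part of these cells and of depth in the difference was not tested.

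Other genes of the smooth muscle programme were read from lists chosen for function. Of 17 measured among 20 other contractile and filament genes, 9 were lower and none higher in the Casp8-mutant library over all cells, against 26.7% of all genes lower and 22.3% higher. By UMIs the largest of the list were Vcl, which anchors actin at adhesions (39.6 CPM in Casp8-mutant and 71.4 CPM in Mlkl-null cells, ratio 0.556, 0.443 to 0.688), Csrp1 (60.0 and 50.2 CPM, ratio 1.2), Ldb3 (14.2 and 66.8 CPM, ratio 0.216, 0.148 to 0.299) and the actin crosslinker Actn1 (48.1 and 49.4 CPM, ratio 0.975). Only 0.735% of Vcl and 0.223% of Ldb3 UMIs came from the smooth muscle-like cells. In fibroblast-like cells 8 of 12 measured genes of this list were lower and none higher, against 16.2% of all genes lower and 14.1% higher.

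Of 13 measured signalling genes of contraction, 4 were lower and none higher over all cells, a share close to the 26.7% of all genes that were lower. Their median log2 ratio was -0.39. Calm2 and Calm3, which encode the calcium sensor of the kinase, gave ratios of 0.730 and 0.601 (0.552 to 0.654 for Calm3), and Rhoa, a small GTPase, 0.648 (0.577 to 0.724). The genes listed as non-muscle relatives of the 10 did not share the direction when all cells were summed. None of 12 measured passed in either direction over all cells, against 26.7% of all genes lower and 22.3% higher. Their median log2 ratio was 0.13. In epithelial-like cells 4 of 12 measured relatives were higher and none lower, against 23.9% of all genes higher and 26.4% lower. Actb stood at 17522 CPM in Casp8-mutant and 16009 CPM in Mlkl-null cells (ratio 1.09), Tagln2 at 279 and 257 CPM (ratio 1.09), Actg1 at 328 and 222 CPM (ratio 1.48) and Myl6 at 264 and 234 CPM (ratio 1.13). Myl6 was also higher in Mlkl-null smooth muscle-like than in other Mlkl-null cells, at 3623 against 220 CPM (ratio 16.5, 13.2 to 20.3). In fibroblast-like cells 4 of 12 measured relatives were lower and 1 higher, against 16.2% of all genes lower and 14.1% higher. Their median log2 ratio there was -0.62. Actb was the higher gene, at 14835 CPM in Casp8-mutant and 7257 CPM in Mlkl-null fibroblast-like cells (ratio 2.04, 1.92 to 2.18), while Tagln2, Cnn2, Cnn3 and Vim were lower.

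Among regulators, 2 of 11 measured were higher and 6 lower over all cells, against 22.3% of all genes higher and 26.7% lower, so the share that was higher was near that of all genes. Klf4, which can repress the smooth muscle programme, stood at 74.6 CPM in Casp8-mutant and 67.2 CPM in Mlkl-null cells (ratio 1.11, 0.930 to 1.32). Gata6 stood at 34.2 and 78.9 CPM (ratio 0.436, 0.342 to 0.545), Srf, the gene of serum response factor, at 23.1 and 38.6 CPM (ratio 0.602, 0.443 to 0.797), and Tgfb1 at 39.6 and 19.9 CPM (ratio 1.99, 1.51 to 2.60). None of the UMIs of Gata6, Srf or Tgfb1 came from the smooth muscle-like cells. Of 8 measured striated muscle genes 5 were lower and none higher, against the same shares. The skeletal troponin Tnnt1 had 28 UMIs in Casp8-mutant and 130 in Mlkl-null cells (ratio 0.518, 0.327 to 0.773), the skeletal actin Acta1 28 and 86 (ratio 0.782, 0.485 to 1.2) and the light chain Mylpf 12 and 64 (ratio 0.460, 0.219 to 0.832). Under 2% of the UMIs of each lay in the smooth muscle-like cells. Tnnt2, the troponin T of heart muscle, had 0 UMIs in Casp8-mutant and 44 in Mlkl-null cells, and 35 of the 44 were in the smooth muscle-like cells. Ckm, the muscle creatine kinase, named after its values were seen, had 1 and 27 UMIs, 17 of the 27 in those cells.

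The genes most like the set across classes were ranked by Pearson correlation of log2(CPM + 10) over 17 class-by-library points of at least 10 cells, which share libraries and depth. The highest were Gpc3 (r = 0.90), Cdkn1c (0.87), Gng11 (0.86), Grb10 (0.84), Tbrg1 (0.83), Mpp5 (0.83), Itgb1 (0.83), Wls (0.82), Ctdspl (0.82) and Tead1 (0.82). Of the 10 genes themselves, each part of the sum, Tpm1 (0.83) and Myl9 (0.81) lay closest to it and Actg2 (0.25) farthest. The smooth muscle-like class has under 10 cells in each library and is not among the points. Outside that class, Tpm1 and Mylk gave 1085 of 1237 set UMIs in the Casp8-mutant and 3355 of 4374 in the Mlkl-null library. The summed set that was ranked against is thus mostly this pair. By cells, genes were ranked by the lower limit of the ratio of their CPM in cells with 3 or more set UMIs over the other cells. The former were 167 Casp8-mutant and 646 Mlkl-null cells and were deeper than the rest. This ranking thus also carries differences of library and depth. Its first genes were Col6a4 (40 and 1 UMIs), Nexn (76 and 9) and Mir7678 (349 and 67). Of the Nexn UMIs 64.7% lay in the smooth muscle-like cells, and none of those of Col6a4 or Mir7678. The rest of that list was Tnnt2, Fabp4, Dmkn, Edn1, Foxf1, Ms4a18 and Lgals7.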

How the data were processed

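The deposited files hold UMI counts per gene and cell barcode, 1 table for each library, with no normalization by the authors. Per the labels' protocols, whole intestine was dissociated with papain and loaded on a 10x 3′ version 2 assay, while the source is given as small intestine. Cell Ranger 3.0.2, Seurat 3.0 and mm10 are named in the submitters' processing notes, which do not say what each was used for. Gene symbols came from GENCODE mouse M21 for 52403 of the 52636 IDs.

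Cells with at least 500 genes and at most 20% mitochondrial UMIs were kept, and doublets called by Scrublet were removed (2 in the Casp8-mutant and 4 in the Mlkl-null library). Because so few were called, undetected doublets can remain. Clusters came from scanpy 1.11.5 (2000 variable genes without sex-linked genes and without the 10 genes, 30 principal components, 15 neighbours, Leiden resolution 1). A cluster was named from at least 3 markers of a list among its 50 leading genes, or, for epithelium, from markers found in most of its cells. This naming rule was set after the clusters were seen, and rebuilt names can differ from the study's own.

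UMIs were summed per library and class and scaled to CPM with exact Poisson 95% intervals. Ratios are Casp8-mutant over Mlkl-null with 0.5 UMI added to each sum and a conditional exact interval, and shares of cells have Clopper-Pearson intervals. With 1 library per genotype no test was run, and intervals cover counting error only. The size rule (at least 1.5-fold, interval leaving out 1, at least 20 UMIs) was run on simulated counts with Poisson error alone. Those counts hold no variation between embryos or cells, so the run cannot show how the rule behaves under it. The 10 genes, the lists and the classes were chosen with earlier results of these data known. Named genes are the 10 genes, up to 4 genes of each functional list with most UMIs, and the 2 sets of 10 genes most like the 10, and any other is said to have been chosen after its values were seen. A gene that this rule names is not reported here. Alternatives covered cell filters, doublets, scaling, the added constant, thinning, the threshold, the genes in the set and the clustering. Sequences are from RefSeq (GRCm38.p6), and sequences of Actg2, Tagln and Myh11 were not used here.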

Additional observations from a re-analysis of the deposited data

Results flagged for a closer look

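Tpm1 stood out because its ratio lay on different sides of 1 in different cell classes. Its ratio of Casp8-mutant over Mlkl-null CPM was 1.12 (interval 1.02 to 1.22) in epithelial-like cells, 0.787 (0.635 to 0.969) in goblet or Paneth-like cells and 0.577 (0.421 to 0.774) in fibroblast-like cells. The interval lies above 1 in the epithelial-like class and below 1 in the other two. Scaled by the median of ratios, a step added after seeing the data, the ratios were 1.06 (0.969 to 1.16), 0.802 (0.647 to 0.987) and 0.484 (0.354 to 0.650) in the same classes, so the epithelial-like interval then includes 1. The difference between the classes was not tested, since each library is 1 embryo. Different clusters hold the epithelial-like and the goblet or Paneth-like cells of each library, while the fibroblast-like cells of both are in 1 cluster. Each library's Tpm1 also varied between its own epithelial-like clusters of over 100 cells, from 329 to 507 CPM in Casp8-mutant and from 175 to 579 CPM in Mlkl-null clusters.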

How the results depend on the processing

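No paired analysis was possible because each genotype has 1 library. No result changed direction under any alternative run. The count of 9 lower and 0 higher genes over all cells stayed within 1.5 times under every alternative run for it. Of 70 values for single genes under settings that can change them, 58 stayed within the interval of the value first given, 12 moved and all stayed below 1.

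The ratio of the set over all cells (0.468) was 0.381 in cells with at least 1000 genes and 0.292 after thinning to 2000 UMIs. Both steps by their construction leave out the 1 Casp8-mutant smooth muscle-like cell, which has 897 genes and 1719 UMIs, and at 1000 genes the Actg2 ratio was 0.0502. It was 0.243 for the 6 core muscle genes, 0.496 without Acta2, 0.516 without Mylk, 0.243 without Tpm1 and 0.220 outside the epithelial-like class. In alternatives chosen after seeing the data, it was 0.669 without the smooth muscle-like cells and 0.438 without the cell with most set UMIs in each library.

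The share of cells with 3 or more set UMIs (19.1% Casp8-mutant, 45.0% Mlkl-null) was 16.5% in the Casp8-mutant library with no cell filter. In Casp8-mutant and Mlkl-null cells it was 29.7% and 49.3% at 1000 genes, 0.916% and 2.44% for the 6 genes, 15.8% and 29.7% without Mylk, and 2.41% and 19.5% without Tpm1. Without Actg2 it was 42.0% in the Mlkl-null library. In Casp8-mutant and Mlkl-null cells it was also 31.8% and 62.7% at 2 UMIs, 8.13% and 21.3% at 5 UMIs, and 3.21% and 20.4% for 3 different genes. Thinning gave 7.41% and 16% at 2000 UMIs and 2.34% and 4.95% at 1000. Cells outside the epithelial-like class gave 11.8% and 37.7%.

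The smooth muscle-like class formed again with the 10 genes among the clustering genes and at resolution 2. It held 0 cells in both libraries with no cell filter, at 1000 genes, with doublets kept, at resolution 0.5 and with each library clustered alone. The fibroblast-like ratio (0.398) was 0.158, 0.0541, 0.149, 0.156 and 0.0608 in that order. The 9 Mlkl-null cells were in the fibroblast-like class in all 5, while the Casp8-mutant cell was not in it at 1000 genes, where it is left out, nor with each library clustered alone, where it was in an epithelial-like cluster. The epithelial-like ratio (0.750, 0.695 to 0.809) was 0.961 (0.891 to 1.03) with each library clustered alone, an interval that includes 1. The epithelial-like class then held that Casp8-mutant cell, with its 185 set UMIs, and its part in the change was not tested. For the 6 genes, a choice added after seeing the data, the ratios were 0.317 in epithelial-like, 0.297 in goblet or Paneth-like and 0.297 in fibroblast-like cells. Genes under 20 UMIs in a class could not be compared there.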

Other observations

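In the granulocyte-like class, 20 Casp8-mutant cells held 36 UMIs of the 10 genes, or 817 CPM, and 23 of the UMIs were Tpm1. The level rests on few cells, since 9 cells held a Tpm1 UMI and 1 cell held 17 of the 36 UMIs and 6 of the 7 of the core muscle genes (7 UMIs, 159 CPM, interval 63.9 to 327). The only Mlkl-null cell of that class held 1. Enteric glia-like cells (0 of 873 Casp8-mutant cells, exact upper bound 0.422%, and 26 of 1435 Mlkl-null cells) held 31 set UMIs or 696 CPM, of which 21 were Tpm1.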
